A study of Mus musculus with 8 samples.

Results

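The cell cycle pathway genes of the mouse lung are those that the table's own pathway column places in the KEGG cell cycle map, without the Cdkn inhibitor genes, the Tgfb ligands and Mdm2. The map holds 122 genes of the table, 11 were left out by that rule, and 111 of 18824 genes remained. Of these, 109 had enough reads to be tested, and Wee2 and Smc1b, both chiefly germ-line genes, had too few. Each gene was placed in the phase in which its product mainly acts (35 in G1, 19 in S, 26 in G2 and 31 in M) and in 1 of 13 functional groups.

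The lungs came from Slc15a3-/- mice given bleomycin (KO_BLM, 4 libraries) and from wild-type mice given bleomycin (WT_BLM, 4 libraries). All mice were 8 weeks old. Bleomycin, at 2 mg/kg and in 50 µl of saline, was put into the trachea on day 0, and lungs were taken on day 21. Bleomycin breaks DNA and leaves a scarring injury in rodent lung, so both groups were exposed to it and each comparison is between the genotype groups. A difference present before the injury, a difference in its extent and an unstated batch cannot be told apart here. Saline-treated controls were not analysed here. Neither a batch nor separate animals for the 4 libraries of a group are stated in the labels, and the p-values therefore rest on a spread among samples that could be technical in part.

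SLC15A3, also named PHT2, carries histidine and small peptides across the endolysosomal membrane. Its gene lies on chromosome 19 from 10842544 to 10857915 (GRCm38), and it had counts of 8, 5, 18 and 15 in KO_BLM replicates 1 to 4, against 935, 1124, 974 and 841 in WT_BLM replicates 1 to 4 (82.3-fold lower in KO_BLM, log2 change −6.36, SE 0.23, edgeR adjusted p = 9.36e-07). Depth was 17627999 to 18471445 counts in KO_BLM libraries and 18878835 to 20180831 counts in WT_BLM libraries. The 7 surfactant and lamellar body genes that mark alveolar type 2 cells summed to 22619 to 34991 CPM in KO_BLM and 8569 to 12359.5 CPM in WT_BLM, so genes typical of lung were abundant in all 8 libraries.

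Cells divide by passing in order through G1, in which growth signals act, S, in which DNA is copied, G2, in which it is checked, and M, in which the copies are parted. Cyclins, made and destroyed in each round, switch on the cyclin-dependent kinases that drive each step, and checkpoint proteins hold a step back until the previous one is complete. The adult lung divides slowly, and injury draws epithelial, stromal and immune cells into the cycle.

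Myc, both E cyclins, several replication genes and the core of the mitotic switch, CDK1 and cyclin B, were lower in KO_BLM lungs, while securin, Cdc14a and parts of the cohesin ring were higher. Of the 109 tested genes 32 fell, 9 rose and 68 did not pass the test, edgeR's quasi-likelihood test at an adjusted p of 0.05 over all 14746 tested genes. Changes are log2 fold changes of KO_BLM over WT_BLM, and levels are in CPM (a gene's count relative to the scaled total of its library), with values in the order of replicates 1 to 4. The share that fell, 29.4%, stands beside 20.8% of all genes, and the share that rose, 8.26%, beside 20.7% of all genes. The share called in either direction was 37.6%, beside 41.5% of all genes. The median log2 fold change was −0.12 over the pathway genes and 0.00 over all genes (0.0025 before rounding), and 74 of 109 were negative. The 4 values of each group did not overlap for 31 genes lower in KO_BLM and 10 higher in KO_BLM, which among all genes held for 20.7% and 20.3%. Where none is said to have risen in a functional group, edgeR called 0, and 0 genes with a positive change had an unadjusted p under 0.05 or were called by DESeq2. The exceptions were Cdc25b in the CDK1 group, with both, and 1 origin gene called by voom.

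How the libraries are scaled sets how many of the lower genes are called. With library totals alone, 17 genes fell and 13 rose, the share that fell was 15.6% beside 15.3% of all genes, and the median of all genes moved to 0.09 while that of the pathway genes was −0.03. In limma fits of log2 FPKM with a filter of 1 FPKM the share that fell was 12.5%, beside 15.8% of all genes on log2(FPKM + 1) and 15.7% on log2(FPKM + 0.1), so the pathway's share was not above that of all genes there. Without that filter it was 12.6%, beside 11.4% of all genes. With library totals alone, 17 of the 32 lower genes and 9 of the 9 higher ones were called again. Of the calls over all genes, 50.0% were higher in KO_BLM in the main scaling and 62.7% with library totals alone. The count of lower genes was also 20 without KO_BLM replicate 1 and 21 without KO_BLM replicate 2, against 22 to 35 without any other library. Calls over all genes shrank there too. The share that fell was 18.3% without KO_BLM replicate 1, beside 17.2% of all genes. Without KO_BLM replicate 2 it was 19.3%, beside 14.6% of all genes. Of the 56 pathway genes named by rule, 40 were called, and 21 of these were called in every alternative that tested them. They were Ccnb1, Ccnb2, Ccne1, Ccne2, Myc, Sfn, Gadd45g, Tfdp1, E2f3, Orc1, Dbf4, Wee1, Cdc25c and Mad2l2, which fell, and Ccna1, E2f2, Anapc13, Anapc11, Pttg1, Cdc14a and Stag2, which rose. Orc1 and Ccna1 passed the filter on low counts only through the group where each was high. Counts of Orc1 were 6, 8, 11 and 11 in KO_BLM, and counts of Ccna1 were 4, 1, 9 and 1 in WT_BLM. Their place in this list therefore carries less weight.

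**Figure D1:**
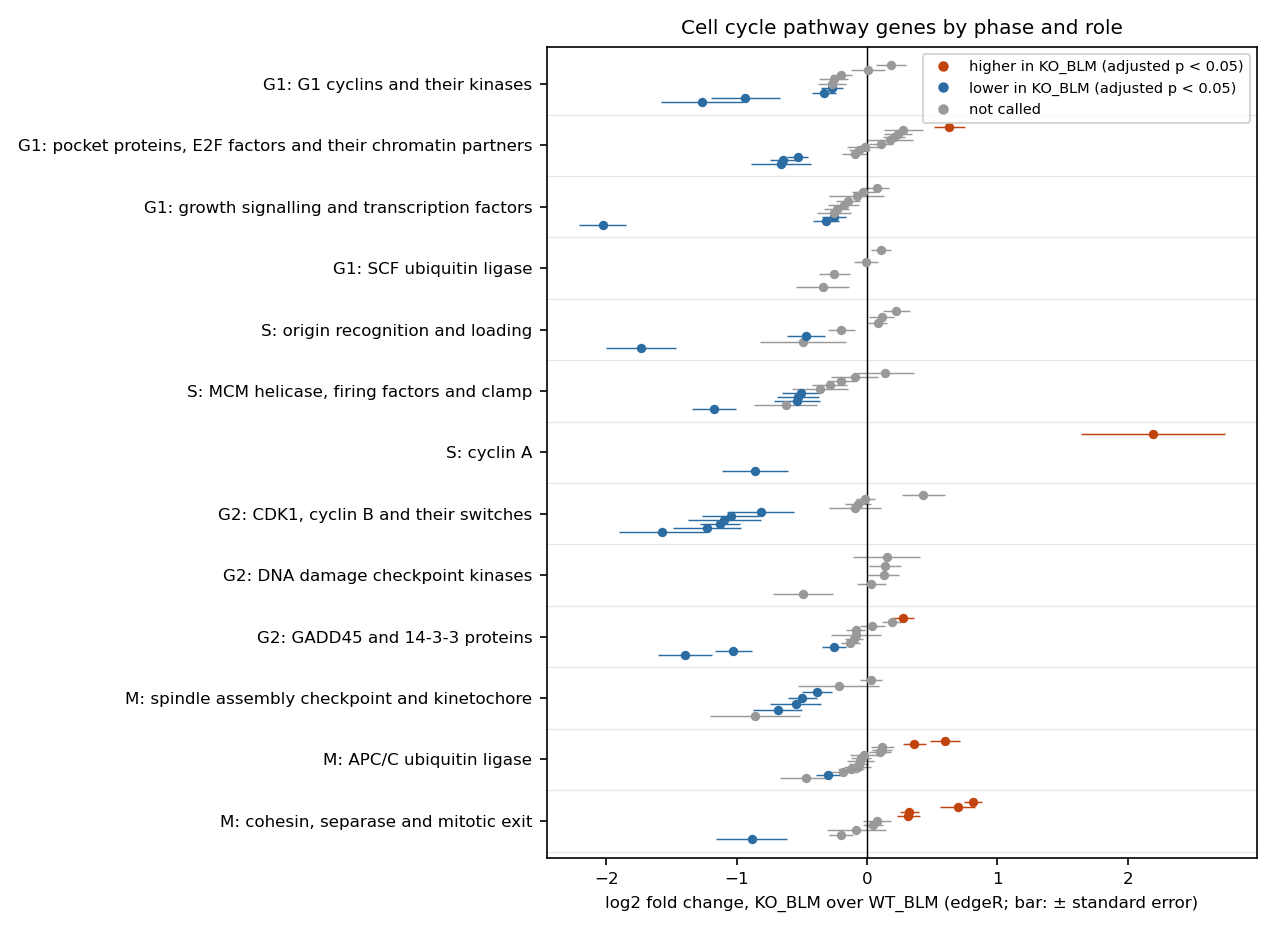
Log2 fold change of KO_BLM over WT_BLM (x axis; bars, ± SE) for the 109 tested cell cycle genes, arranged down the page by functional group, with genes called higher, called lower and not called in different colours. The lower genes lie in every phase, and the higher ones gather in the cohesin, separase and mitotic exit group, where 4 of 9 rose.

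Cell type markers differed as well. In bulk tissue, fewer cells of a type and less RNA per cell cannot be told apart. Markers of activated fibroblasts (7 of 7 fell) summed to 1984 to 2275 CPM in KO_BLM and 5555 to 6351 CPM in WT_BLM, and those of recruited macrophages (8 of 9 fell) to 367 to 1064 CPM in KO_BLM and 1863 to 2156 CPM in WT_BLM. Keratin-rich transitional alveolar cells, an injury state of the epithelium, had 5 of 6 markers lower, with sums of 691 to 966 CPM in KO_BLM and 1222 to 1410.4 CPM in WT_BLM. Lymphocyte markers moved the other way. T cell markers (7 of 8 rose) summed to 123 to 196 CPM in KO_BLM and 45.0 to 95.5 CPM in WT_BLM, natural killer markers (6 of 6 rose) to 49.4 to 103 CPM in KO_BLM and 4.14 to 14.1 CPM in WT_BLM, and B cell markers (6 of 6 rose) to 207 to 340.1 CPM in KO_BLM and 44.1 to 121 CPM in WT_BLM. Of the other lists, alveolar macrophage markers had 4 of 8 higher and 3 lower, neutrophil markers 1 of 5 lower, alveolar type 1 markers 3 of 6 higher, and endothelial markers 4 of 6 higher and 1 lower. No marker of these lists was at 0 in all 8 libraries. Their part in the results on the cell cycle genes was not tested.

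In G1, 10 of 35 genes fell (28.6%, beside 20.8% of all genes) and 1 rose (2.86%, beside 20.7%). The median log2 fold change was −0.18. Cyclin E was the main change among the cyclins, and Myc had the largest fold decrease of the named G1 genes. The count that fell was 6 without KO_BLM replicate 4 or without WT_BLM replicate 1, and at most 9 without any other library. Of all genes, 18.9% fell without KO_BLM replicate 4 and 16.3% without WT_BLM replicate 1, so 6 of 35 is near those shares.

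Cyclin E1 and cyclin E2 bind CDK2 and carry the cell across the border from G1 into S. Ccne1 had 1.93, 2.23, 4.38 and 3.54 CPM in KO_BLM replicates 1 to 4, against 5.61, 9.91, 8.57 and 5.01 CPM in WT_BLM replicates 1 to 4. All 4 KO_BLM libraries lay below the lowest WT_BLM library (log2 change −1.26, SE 0.31, edgeR adjusted p = 0.0102). Ccne2 had 1.98, 2.79, 1.56 and 2.61 CPM in KO_BLM and 3.68, 5.998, 4.12 and 3.27 CPM in WT_BLM, again without overlap (log2 change −0.93, SE 0.26, edgeR adjusted p = 0.0184). Both are low genes, and Ccne2 shares exon positions with Ints8 on the other strand. The kinase gene Cdk2 had 31.9, 33.1, 32.3 and 28.8 CPM in KO_BLM and 36.5, 41.7, 38.6 and 35.2 CPM in WT_BLM, a small difference without overlap (log2 change −0.27, SE 0.085, edgeR adjusted p = 0.0288). It was not called without KO_BLM replicate 1 or 4 or WT_BLM replicate 1, 2 or 3 (edgeR adjusted p = 0.0502 to 0.0744).

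The D cyclins answer to growth signals and bind CDK4 and CDK6, which begin the phosphorylation of the retinoblastoma protein. Per length of transcript (FPKM, mean ± SD, n = 4) their genes stood above the E, A and B cyclins: Ccnd1 was at 87.3 ± 7.24 FPKM in KO_BLM and 94.2 ± 6.86 FPKM in WT_BLM, Ccnd3 at 105 ± 5.24 FPKM in KO_BLM and 87.7 ± 14.2 FPKM in WT_BLM and Ccnd2 at 16.1 ± 2.37 FPKM in KO_BLM and 15.1 ± 3.05 FPKM in WT_BLM. None of the 3 passed the test. Ccnd1 had 334, 294, 307 and 341 CPM in KO_BLM and 377, 379.6, 364 and 340.3 CPM in WT_BLM (log2 change −0.20, SE 0.083, edgeR adjusted p = 0.0801). Ccnd3 had 283, 258, 247 and 239 CPM in KO_BLM and 242, 246, 238 and 179 CPM in WT_BLM (log2 change 0.18, SE 0.11, edgeR adjusted p = 0.216), and a named pseudogene copy makes its level uncertain. Ccnd2 had 117, 123, 122 and 152 CPM in KO_BLM and 112, 155, 137 and 108 CPM in WT_BLM (log2 change 0.0080, SE 0.13, edgeR adjusted p = 0.967). The sign for Ccnd2 turned under several alternatives. The D cyclin ranges of the genotypes thus overlapped in all 3 genes. Of their kinases, Cdk6 fell, with 68.2, 69.9, 61.7 and 57.0 CPM in KO_BLM and 74.2, 89.1, 80.2 and 78.8 CPM in WT_BLM (log2 change −0.33, SE 0.092, edgeR adjusted p = 0.0177). Cdk6 was not called with library totals alone (edgeR adjusted p = 0.0546) or in the FPKM fits (limma adjusted p = 0.0803 to 0.0929). Cdk4 had 95.4, 96.3, 103 and 99.5 CPM in KO_BLM and 123, 135, 121 and 95.04 CPM in WT_BLM (log2 change −0.27, SE 0.11, edgeR adjusted p = 0.0650). WT_BLM replicate 4 alone lay at the level of the KO_BLM libraries, and Cdk4 was called lower without WT_BLM replicate 4 (edgeR adjusted p = 0.00510). The phosphatase gene Cdc25a, which frees CDK2 for action, was the other member of this group and was not called (−0.26).

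The retinoblastoma family holds back the E2F factors, which switch on genes for DNA synthesis, and the DP proteins are the partners with which E2Fs bind DNA. In this group of 12 genes 3 fell and 1 rose, with a median of 0.05. The share that fell, 25%, is near the 20.8% of all genes, and 8.33% rose, beside 20.7%. E2f3, an activator of the family, had 12.9, 12.2, 13.6 and 14.02 CPM in KO_BLM replicates 1 to 4, against 20.6, 22.6, 21.1 and 18.2 CPM in WT_BLM replicates 1 to 4. E2f2, another activator, had 53.0, 51.1, 40.9 and 37.7 CPM in KO_BLM replicates 1 to 4, against 30.2, 27.7, 29.6 and 30.5 CPM in WT_BLM replicates 1 to 4. These 2 relatives therefore differed in opposite directions, each without overlap (log2 change −0.64, SE 0.10, edgeR adjusted p = 0.00125 for E2f3, and log2 change 0.63, SE 0.12, edgeR adjusted p = 0.00249 for E2f2). E2f2 is known for its role in maturing red cell precursors, and the 5 red cell markers, globins and Alas2, all rose, summing to 1466 to 2843 CPM in KO_BLM and 964 to 1466 CPM in WT_BLM. KO_BLM replicate 4 had the lowest value of its group in both measures, and the part of red cells in the E2f2 difference was not tested.

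The partner genes Tfdp1 and Tfdp2 both fell. Tfdp1 had 41.4, 46.0, 41.8 and 48.5 CPM in KO_BLM and 63.7, 69.1, 61.6 and 62.5 CPM in WT_BLM (log2 change −0.53, SE 0.081, edgeR adjusted p = 9.86e-04). Tfdp2 had 61.3, 59.7, 72.6 and 71.0 CPM in KO_BLM and 93.7, 72.8, 84.7 and 167 CPM in WT_BLM (log2 change −0.66, SE 0.23, edgeR adjusted p = 0.0411), with WT_BLM replicate 4 far above the other libraries. Tfdp2 was not called without KO_BLM replicate 1, 2, 3 or 4 or WT_BLM replicate 1 (edgeR adjusted p = 0.0595 to 0.104). The first activator of the family, E2f1, had 13.3, 14.2, 15.9 and 16.001 CPM in KO_BLM and 14.3, 16.3, 13.2 and 8.76 CPM in WT_BLM (log2 change 0.18, SE 0.18, edgeR adjusted p = 0.441), and Rb1, which encodes the retinoblastoma protein, had 42.9, 43.4, 56.1 and 57.0 CPM in KO_BLM and 43.3, 49.0, 45.7 and 63.1 CPM in WT_BLM (log2 change −0.012, SE 0.14, edgeR adjusted p = 0.956). The ranges overlapped in both. The other members, among them the pocket proteins Rbl1 and Rbl2, the repressors E2f4 and E2f5 and the histone deacetylases Hdac1 and Hdac2, lay between −0.09 and 0.28 on the log2 scale and were not called.

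Among the 10 genes of growth signalling and transcription, 3 fell (30%, beside 20.8% of all genes) and none rose. Myc, on chromosome 15 from 61985341 to 61990361, encodes a transcription factor that raises growth and cell cycle entry. Its level was 12.8, 12.0, 13.97 and 18.2 CPM in KO_BLM replicates 1 to 4, against 62.5, 48.0, 47.8 and 74.2 CPM in WT_BLM replicates 1 to 4. The highest KO_BLM library was below the lowest WT_BLM library by a wide margin (4.08-fold lower, log2 change −2.03, SE 0.18, edgeR adjusted p = 4.86e-05). Abl1, a tyrosine kinase gene, had 137, 130.1, 118 and 102 CPM in KO_BLM and 158, 147, 142 and 159 CPM in WT_BLM (log2 change −0.32, SE 0.10, edgeR adjusted p = 0.0295). It was not called without KO_BLM replicate 3 or 4 or WT_BLM replicate 1 or 4 (edgeR adjusted p = 0.0544 to 0.0763). The TGF-β signal carrier Smad2 had 50.0, 49.5, 46.2 and 49.9 CPM in KO_BLM and 57.8, 54.0, 53.3 and 67.9 CPM in WT_BLM (log2 change −0.25, SE 0.091, edgeR adjusted p = 0.0475), and was not called without KO_BLM replicate 1, 2, 3 or 4 or WT_BLM replicate 1 or 4 (edgeR adjusted p = 0.0722 to 0.117). Its relative Smad3 had 71.8, 63.3, 62.0 and 72.7 CPM in KO_BLM and 77.6, 73.5, 74.8 and 90.9 CPM in WT_BLM (log2 change −0.23, SE 0.095, edgeR adjusted p = 0.0739). Trp53, which encodes the p53 guardian of the genome, had 64.3, 67.3, 70.0 and 60.4 CPM in KO_BLM and 66.8, 91.4, 79.6 and 39.0 CPM in WT_BLM (log2 change −0.080, SE 0.21, edgeR adjusted p = 0.783). For Trp53 the WT_BLM libraries spanned a wider range than the KO_BLM ones, and the sign turned without WT_BLM replicate 2. The SCF ubiquitin ligase genes Skp1, Skp2, Cul1 and Rbx1, whose products mark cyclin E and cell cycle inhibitors for destruction, lay between −0.34 and 0.11, and none was called by edgeR, DESeq2 or voom or had an unadjusted p under 0.05.

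**Figure D2:**
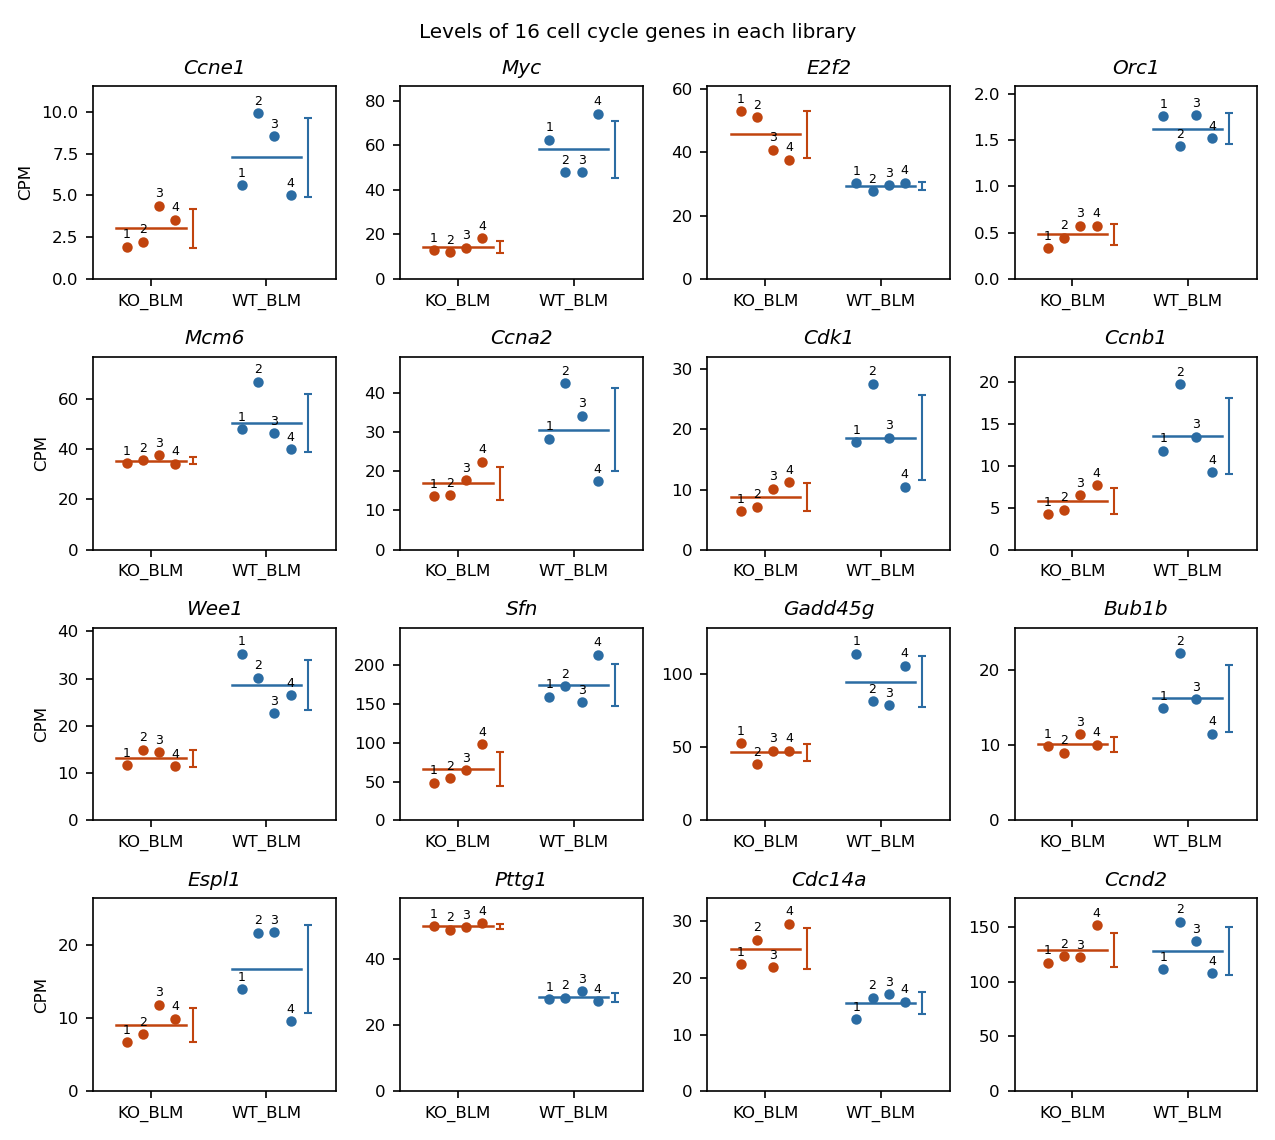
Level in CPM (y axis, a linear scale of its own in each panel) of 16 cell cycle genes in each library, KO_BLM left and WT_BLM right, with the mean as a line and the SD as a bar (n = 4 each). For Ccne1, Myc, Ccnb1, Wee1, Sfn and Gadd45g all KO_BLM points lie below all WT_BLM points, for E2f2, Pttg1 and Cdc14a all lie above, and for Ccnd2 the groups overlap.

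In S phase, 7 of 19 genes fell (36.8%, beside 20.8% of all genes) and 1 rose (5.26%, beside 20.7%), with a median of −0.36. The genes that mark, load and fire replication origins made up 6 of the 7 that fell, and 14 of the 19 were negative. Orc1 is 1 of these 7, and Ccna1 is the 1 that rose. Each passed the filter on low counts only through the group where it was high, so both calls carry less weight. The count that fell was 3 without KO_BLM replicate 1 or 2, 4 without WT_BLM replicate 1 and 10 without WT_BLM replicate 4. Of all genes, 17.2% fell without KO_BLM replicate 1, 14.6% without KO_BLM replicate 2, 16.3% without WT_BLM replicate 1 and 19.4% without WT_BLM replicate 4. Without KO_BLM replicate 1 or 2, 3 of 19 is thus near the share of all genes.

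The origin recognition complex marks the sites where replication starts and CDC6 helps it to load the MCM helicase. Orc1, the subunit whose level changes through the cycle, had 0.330, 0.446, 0.573 and 0.573 CPM in KO_BLM replicates 1 to 4, against 1.76, 1.44, 1.77 and 1.52 CPM in WT_BLM replicates 1 to 4. The level was low in all libraries, and the groups did not overlap (3.33-fold lower, log2 change −1.73, SE 0.27, edgeR adjusted p = 0.00108). Orc1 passed the filter on low counts only through WT_BLM, so this test and the lack of overlap carry less weight. Orc2 had 18.6, 19.6, 20.7 and 20.8 CPM in KO_BLM and 28.4, 22.5, 23.5 and 36.0 CPM in WT_BLM (log2 change −0.47, SE 0.15, edgeR adjusted p = 0.0271), and was not called without KO_BLM replicate 1, 2 or 3 or WT_BLM replicate 1 (edgeR adjusted p = 0.0512 to 0.0705). Cdc6 had 2.53, 3.01, 3.33 and 3.75 CPM in KO_BLM and 4.45, 6.196, 5.30 and 1.80 CPM in WT_BLM (log2 change −0.49, SE 0.33, edgeR adjusted p = 0.256). Here WT_BLM replicate 4 was the lowest of all 8 libraries, and Cdc6 was called lower without WT_BLM replicate 4 (edgeR adjusted p = 0.0174). Orc3, Orc4, Orc5 and Orc6 lay between −0.20 and 0.23 and were not called.

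The MCM proteins form the helicase that opens the DNA, DBF4 switches on the kinase that fires it, CDC45 completes the moving helicase, and PCNA is the clamp that holds the polymerase. Of these 10 genes 4 fell (40%, beside 20.8% of all genes) and none rose, with a median of −0.43. Dbf4 differed most, with 6.77, 6.97, 7.35 and 8.23 CPM in KO_BLM replicates 1 to 4, against 15.3, 15.3, 13.2 and 22.3 CPM in WT_BLM replicates 1 to 4 (2.25-fold lower, log2 change −1.17, SE 0.17, edgeR adjusted p = 7.87e-04). Its KO_BLM libraries were close to each other and far below all WT_BLM libraries. The gene of its kinase partner, Cdc7, was not called (0.14 on the log2 scale). Mcm6 had 34.5, 35.5, 37.6 and 34.1 CPM in KO_BLM and 48.0, 66.9, 46.3 and 39.8 CPM in WT_BLM (log2 change −0.50, SE 0.14, edgeR adjusted p = 0.0184). It was not called with library totals alone (edgeR adjusted p = 0.0520) or in the FPKM fits (limma adjusted p = 0.0714 to 0.101). Mcm3 had 23.2, 23.3, 27.0 and 23.8 CPM in KO_BLM and 33.6, 50.3, 30.1 and 27.4 CPM in WT_BLM (log2 change −0.54, SE 0.17, edgeR adjusted p = 0.0320), and was not called without KO_BLM replicate 1, 2 or 4 or WT_BLM replicate 1 (edgeR adjusted p = 0.0551 to 0.0772). Cdc45 had 4.46, 4.52, 5.26 and 4.80 CPM in KO_BLM and 7.04, 7.44, 7.66 and 5.33 CPM in WT_BLM (log2 change −0.53, SE 0.16, edgeR adjusted p = 0.0258), and was not called without KO_BLM replicate 1 or 2 or WT_BLM replicate 1, 2 or 3 (edgeR adjusted p = 0.0585 to 0.0710). WT_BLM replicate 2 was the highest library for both helicase subunits.

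Mcm5 and Mcm2 had the same outline without passing the test. Mcm5 had 13.4, 16.8, 19.9 and 15.8 CPM in KO_BLM and 25.9, 37.1, 23.9 and 14.6 CPM in WT_BLM (log2 change −0.62, SE 0.24, edgeR adjusted p = 0.0622), and Mcm2 had 19.7, 20.6, 23.7 and 20.5 CPM in KO_BLM and 28.4, 38.3, 25.8 and 16.1 CPM in WT_BLM (log2 change −0.36, SE 0.21, edgeR adjusted p = 0.197). In both, WT_BLM replicate 4 fell into or below the KO_BLM range. Mcm5 was called lower without WT_BLM replicate 4 (edgeR adjusted p = 0.00736), and so was Mcm2 without WT_BLM replicate 4 (edgeR adjusted p = 0.0142). Neither was called with any other single library left out, and leaving out the WT_BLM library nearest to KO_BLM favours such a call. Mcm4 (−0.29) and Mcm7 (−0.09) were not called. Pcna had 62.1, 62.0, 72.1 and 67.0 CPM in KO_BLM and 78.4, 89.4, 70.2 and 64.5 CPM in WT_BLM (log2 change −0.20, SE 0.11, edgeR adjusted p = 0.160), and its named pseudogene copies make its level uncertain.

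The cyclin A genes went opposite ways. Cyclin A2 works with CDK2 in S and with CDK1 on the way to mitosis in dividing cells of the body. Ccna2 had 13.7, 13.8, 17.7 and 22.5 CPM in KO_BLM and 28.4, 42.5, 34.2 and 17.5 CPM in WT_BLM (log2 change −0.86, SE 0.26, edgeR adjusted p = 0.0231). WT_BLM replicate 4 was inside the KO_BLM range, and Ccna2 was not called without KO_BLM replicate 1 or 2 or WT_BLM replicate 2 or 3 (edgeR adjusted p = 0.0534 to 0.0662). Cyclin A1 is known chiefly from male germ cells and has also been described in multiciliated cells. Ccna1 had 0.826, 0.725, 0.938 and 1.25 CPM in KO_BLM replicates 1 to 4, against 0.220, 0.0496, 0.482 and 0.0544 CPM in WT_BLM replicates 1 to 4 (log2 change 2.19, SE 0.55, edgeR adjusted p = 0.0110). All values were near or below 1 CPM, with counts of 15, 13, 18 and 24 in KO_BLM replicates 1 to 4, against 4, 1, 9 and 1 in WT_BLM replicates 1 to 4, so the size of the fold rests on few reads. Ccna1 passed the filter on low counts only through KO_BLM, so its test carries less weight. The ciliated cell markers, of which 6 of 6 tested rose and Mcidas was too low to be tested, summed to 453 to 584 CPM in KO_BLM and 123 to 197 CPM in WT_BLM, and their part in the Ccna1 difference was not tested. Per length of transcript, Ccna2 stood at 5.19 ± 1.41 FPKM in KO_BLM and 8.88 ± 3.26 FPKM in WT_BLM and Ccna1 at 0.473 ± 0.128 FPKM in KO_BLM and 0.0963 ± 0.0984 FPKM in WT_BLM.

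In G2, 9 of 25 tested genes fell (36%, beside 20.8% of all genes) and 1 rose (4%, beside 20.7%), with a median of −0.09. The switch that starts mitosis held most of the change. Of the 10 tested genes of CDK1, cyclin B and their regulators 6 fell (60%) and none rose, with a median of −0.93. In analyses that each left out 1 library, 5 to 6 of them fell. The gene that rose in this phase was Gadd45b, and the count of higher genes was 0 without KO_BLM replicate 1, 2 or 3 and 2 without KO_BLM replicate 4 or WT_BLM replicate 3.

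CDK1 bound to cyclin B1 or B2 drives the cell into mitosis. Cdk1, on chromosome 10 from 69335146 to 69352912, had 6.44, 7.14, 10.2 and 11.2 CPM in KO_BLM replicates 1 to 4, against 17.9, 27.6, 18.6 and 10.5 CPM in WT_BLM replicates 1 to 4. WT_BLM replicate 4 lay inside the KO_BLM range and the other 3 WT_BLM libraries above it (2.13-fold lower, log2 change −1.09, SE 0.28, edgeR adjusted p = 0.0126). Cdk1 was not called in the fit of log2(FPKM + 1) without a filter (limma adjusted p = 0.0549). Ccnb1, on chromosome 13 from 100778739 to 100786486, had 4.24, 4.74, 6.46 and 7.66 CPM in KO_BLM replicates 1 to 4, against 11.8, 19.7, 13.4 and 9.20 CPM in WT_BLM replicates 1 to 4 (2.34-fold lower, log2 change −1.23, SE 0.26, edgeR adjusted p = 0.00514). Ccnb2 had 6.88, 7.19, 8.75 and 9.12 CPM in KO_BLM and 16.3, 22.6, 16.7 and 10.3 CPM in WT_BLM (2.06-fold lower, log2 change −1.04, SE 0.22, edgeR adjusted p = 0.00481). The cyclin B groups did not overlap, although WT_BLM replicate 4 was close to the KO_BLM libraries in both. Each cyclin B gene has a named pseudogene copy that could share reads.

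Promoters of cell cycle genes are known for a few short motifs. Below are the 150 bases before the RefSeq start site (GRCm38.p6) of the mitotic switch genes Cdk1, Ccnb1 and Ccnb2, of Mcm6 for the replication genes, and of separase (Espl1) and its inhibitor securin (Pttg1), which moved in opposite directions. Each is written 5′ to 3′ on the strand of the gene, in lower case, with matches in capitals: the CHR of late cell cycle genes (written TTTGAA or else written TTTAAA), the CCAAT box (CCAAT itself), and E2F letters (TTCCCGC, or the variant TTGGCGC, or the variant TTCGCGC, or the variant TTGCCGC), each on either strand. Matches may overlap, as the E2F and CCAAT letters do in Ccnb1. The start sites used for Espl1 and Pttg1 lie inside the annotated span of the gene. The Espl1 stretch still reaches beyond the first base of that span, 102296254. The Pttg1 stretch lies wholly inside its span, which ends at 43427463 on the minus strand. The bases before that end are not shown.
Cdk1 (chr10:69352913-69353062, minus strand): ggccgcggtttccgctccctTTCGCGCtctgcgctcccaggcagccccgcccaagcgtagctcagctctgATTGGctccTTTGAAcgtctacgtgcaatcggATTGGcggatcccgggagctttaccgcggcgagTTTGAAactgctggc
Ccnb1 (chr13:100786487-100786636, minus strand): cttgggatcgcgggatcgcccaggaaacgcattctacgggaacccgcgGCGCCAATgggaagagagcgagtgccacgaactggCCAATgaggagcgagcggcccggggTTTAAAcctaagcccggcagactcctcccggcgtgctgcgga
Ccnb2 (chr9:70421555-70421704, minus strand): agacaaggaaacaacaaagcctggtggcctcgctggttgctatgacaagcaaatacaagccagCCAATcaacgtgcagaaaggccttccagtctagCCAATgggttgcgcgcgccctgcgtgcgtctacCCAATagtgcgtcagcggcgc
Mcm6 (chr1:128359706-128359855, minus strand): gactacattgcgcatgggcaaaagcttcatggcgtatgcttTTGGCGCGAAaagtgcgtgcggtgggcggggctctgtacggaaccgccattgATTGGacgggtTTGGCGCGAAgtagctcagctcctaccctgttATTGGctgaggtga
Espl1 (chr15:102296143-102296292, plus strand): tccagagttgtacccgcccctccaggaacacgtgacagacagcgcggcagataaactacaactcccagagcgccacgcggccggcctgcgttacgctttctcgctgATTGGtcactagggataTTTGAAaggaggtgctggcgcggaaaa
Pttg1 (chr11:43425982-43426131, minus strand): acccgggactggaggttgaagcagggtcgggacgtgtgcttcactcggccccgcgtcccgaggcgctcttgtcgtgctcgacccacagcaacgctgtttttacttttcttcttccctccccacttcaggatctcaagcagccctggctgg

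Cdk1 and Ccnb1 carried all 3 kinds of letters in this stretch and Ccnb2 CCAAT boxes alone. Mcm6 carried E2F letters and CCAAT boxes, and Espl1 a CCAAT box and a CHR. The Pttg1 stretch carried none of them, but it lies inside the gene's span, so it cannot be set against the Espl1 promoter. RefSeq promoters of 300 bases (250 before the start site and 50 after) were found for 89 of the 111 genes, 112 promoters in all. E2F letters were in 26.8% of them and in 9.57% of all 32851 promoters of the table. CCAAT boxes were in 51.8% and 37.4%, and the CHR in 27.7% and 27.6%. By phase, E2F letters were most common in S (50.0% of 22 promoters) and CCAAT boxes in G2 (73.7% of 19 promoters). Among the pathway genes, 33 promoters belonged to genes that fell, 12 to genes that rose and 65 to genes not called. The CHR was in 45.5% (exact 95% binomial interval 28.1 to 63.6%), 25% and 20% (11.1 to 31.8%) of these, CCAAT boxes in 54.5%, 58.3% and 47.7%, and E2F letters in 30.3%, 16.7% and 26.2%. No difference between these shares was tested. Some genes have several promoters in these counts, so promoters are not independent, and a match is a description of letters only.

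Of the 7 tested regulators of CDK1 in this group, Wee1, Cdc25c and Plk1 fell and the other 4 were not called. WEE1 places the phosphate that holds CDK1 inactive, and CDC25 phosphatases remove it. Wee1, the brake, had 11.6, 14.9, 14.5 and 11.5 CPM in KO_BLM replicates 1 to 4, against 35.2, 30.2, 22.7 and 26.5 CPM in WT_BLM replicates 1 to 4 (log2 change −1.12, SE 0.15, edgeR adjusted p = 5.54e-04). Cdc25c, which releases the brake, had 0.716, 0.558, 1.51 and 0.990 CPM in KO_BLM and 3.24, 3.62, 2.36 and 2.07 CPM in WT_BLM (log2 change −1.57, SE 0.33, edgeR adjusted p = 0.00515). Both the brake and its release were thus lower in KO_BLM, without overlap. Plk1, a kinase gene that promotes entry into mitosis, had 6.88, 7.08, 7.82 and 7.66 CPM in KO_BLM and 11.3, 18.7, 14.7 and 6.97 CPM in WT_BLM (log2 change −0.81, SE 0.26, edgeR adjusted p = 0.0285), and was not called without KO_BLM replicate 1, 2, 3 or 4 or WT_BLM replicate 2 or 3 (edgeR adjusted p = 0.0501 to 0.0687). The related phosphatase gene Cdc25b pointed the other way without passing the test, with 42.8, 45.2, 41.5 and 32.2 CPM in KO_BLM and 26.7, 34.1, 36.7 and 22.3 CPM in WT_BLM (log2 change 0.43, SE 0.16, edgeR adjusted p = 0.0582). It was called higher without KO_BLM replicate 4 or WT_BLM replicate 3 (edgeR adjusted p = 0.0311 to 0.0317). Pkmyt1, Ccnh and Cdk7, which encode a second inhibitory kinase and the activating kinase of CDK1, lay between −0.09 and −0.01 and were not called.

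None of the 5 DNA damage kinase genes passed the test. Atm, Atr, Prkdc and Chek2, whose products sense or pass on DNA breaks, lay between 0.03 and 0.15. None of the 5 had an unadjusted p under 0.05 in edgeR or was called by DESeq2. Chek1, which stalls the cycle when replication fails and is itself made in S phase, had 1.82, 1.78, 2.29 and 3.13 CPM in KO_BLM and 2.97, 3.57, 3.21 and 2.94 CPM in WT_BLM (log2 change −0.49, SE 0.23, edgeR adjusted p = 0.109), and was called lower without KO_BLM replicate 4 (edgeR adjusted p = 0.0310) and, with all libraries, by voom (log2 change −0.70, adjusted p = 0.0108).

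Of the GADD45 stress genes and the YWHA adaptor genes (10 in all) 3 fell and 1 rose. These shares, 30% and 10%, stand beside 20.8% and 20.7% of all genes. Gadd45g had 52.7, 38.6, 47.7 and 47.7 CPM in KO_BLM replicates 1 to 4, against 114, 81.4, 78.8 and 106 CPM in WT_BLM replicates 1 to 4 (log2 change −1.03, SE 0.14, edgeR adjusted p = 6.01e-04). Gadd45b had 94.7, 92.8, 98.7 and 85.9 CPM in KO_BLM and 79.9, 76.4, 82.4 and 68.0 CPM in WT_BLM (log2 change 0.28, SE 0.084, edgeR adjusted p = 0.0238), and was not called without KO_BLM replicate 1, 2 or 3 (edgeR adjusted p = 0.0524 to 0.0545). Gadd45a had 12.6, 15.3, 19.0 and 23.7 CPM in KO_BLM and 16.3, 18.4, 17.3 and 23.0 CPM in WT_BLM (log2 change −0.087, SE 0.19, edgeR adjusted p = 0.739). Gadd45g was thus lower, Gadd45b higher and Gadd45a not called, 3 relatives whose products bind CDK1 and stress kinases. Sfn encodes stratifin, an epithelial adaptor that keeps CDK1 out of the nucleus after damage. It had 48.7, 54.4, 64.4 and 98.3 CPM in KO_BLM replicates 1 to 4, against 159, 173, 153 and 213 CPM in WT_BLM replicates 1 to 4 (log2 change −1.39, SE 0.21, edgeR adjusted p = 9.21e-04). KO_BLM replicate 4 was nearest to the WT_BLM libraries, and it was also the KO_BLM library with the highest sum of transitional alveolar markers (966 CPM), whose part in the Sfn difference was not tested. Ywhag had 175, 181, 173 and 181 CPM in KO_BLM and 202, 232, 231 and 183 CPM in WT_BLM (log2 change −0.25, SE 0.091, edgeR adjusted p = 0.0472), and was not called without KO_BLM replicate 1, 2, 3 or 4 or WT_BLM replicate 1, 2 or 3 (edgeR adjusted p = 0.0622 to 0.116). The other YWHA genes lay between −0.13 and 0.19 and were not called.

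In mitosis, 6 of 30 tested genes fell and 6 rose, with a median of −0.06. Each is 20% of the genes, near the 20.8% lower and 20.7% higher of all genes. The spindle checkpoint group made up 4 of the 6 that fell, and genes of the cohesin, separase and exit group made up 4 of the 6 that rose. That count of 4 lower genes includes Mad2l2, which was placed in the checkpoint group but is better known for DNA repair. The count that fell was 3 without KO_BLM replicate 1 or 2 or WT_BLM replicate 3, and 2 without WT_BLM replicate 2. In those analyses 14.6 to 19.5% of all genes fell, so these counts of 30 lie below the shares of all genes.

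**Figure D3:**
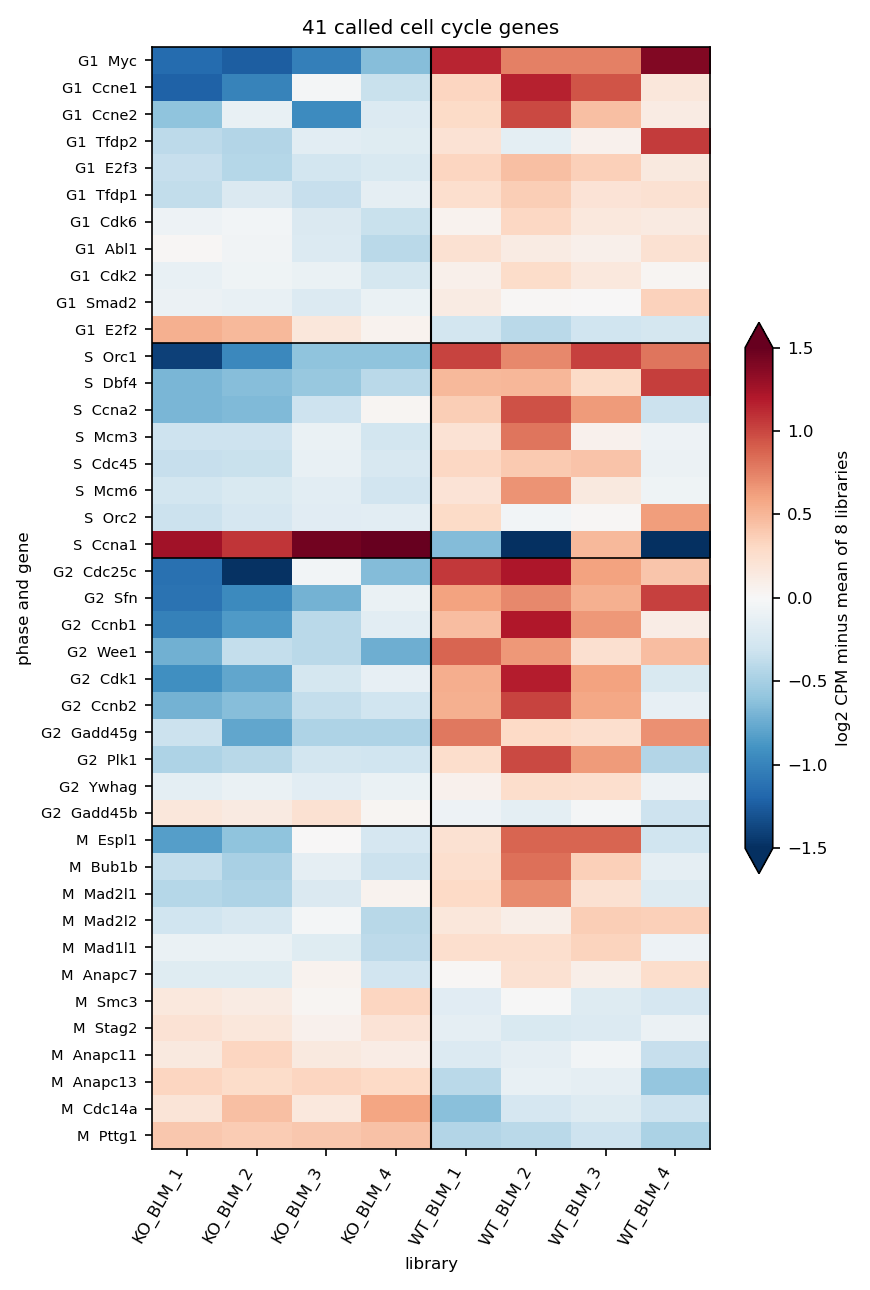
Log2 CPM minus the gene's mean over the 8 libraries (colour) for the 41 called cell cycle genes (rows, by phase) in each library (columns, KO_BLM left, WT_BLM right); red is above and blue below the mean. Several lower genes, such as Cdk1, Plk1 and Espl1, are red in WT_BLM replicates 1 to 3 and blue in WT_BLM replicate 4, while the 6 higher genes of mitosis are red in all KO_BLM libraries.

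The spindle checkpoint delays the parting of chromatids until every chromosome is attached. Of 7 genes 4 fell (57.1%, beside 20.8% of all genes) and none rose, with a median of −0.50. In analyses that each left out 1 library, 2 to 5 of them fell. Bub1b, which encodes the checkpoint kinase-like protein BUBR1, had 9.86, 9.03, 11.5 and 10.1 CPM in KO_BLM replicates 1 to 4, against 15.01, 22.3, 16.2 and 11.5 CPM in WT_BLM replicates 1 to 4 (log2 change −0.68, SE 0.19, edgeR adjusted p = 0.0165). Bub1b was not called in the FPKM fits (limma adjusted p = 0.0523 to 0.0760). Mad2l1, the MAD2 that binds CDC20, had 7.76, 7.58, 8.96 and 10.8 CPM in KO_BLM and 12.9, 17.1, 12.2 and 9.14 CPM in WT_BLM (log2 change −0.55, SE 0.20, edgeR adjusted p = 0.0475). It was not called without KO_BLM replicate 1, 2 or 3 or WT_BLM replicate 1, 2 or 3 (edgeR adjusted p = 0.0702 to 0.123). Mad1l1, its anchor at the kinetochore, had 18.1, 18.1, 17.0 and 14.7 CPM in KO_BLM and 22.9, 23.0, 24.4 and 18.2 CPM in WT_BLM (log2 change −0.38, SE 0.12, edgeR adjusted p = 0.0258), and was not called without KO_BLM replicate 4 or WT_BLM replicate 1, 2 or 3 (edgeR adjusted p = 0.0537 to 0.0652). Mad2l2, better known for its part in DNA repair and translesion synthesis, had 17.0, 17.8, 20.5 and 15.7 CPM in KO_BLM and 23.7, 22.4, 27.2 and 26.9 CPM in WT_BLM (log2 change −0.50, SE 0.11, edgeR adjusted p = 0.00695). In Mad1l1 and Mad2l2 all KO_BLM libraries lay below all WT_BLM libraries, as they did in Bub1b, where the nearest pair, KO_BLM replicate 3 and WT_BLM replicate 4, is equal at this rounding. Bub1, the kinase that recruits the other checkpoint proteins, had 4.96, 4.02, 3.28 and 5.37 CPM in KO_BLM and 3.90, 7.78, 6.05 and 2.72 CPM in WT_BLM (log2 change −0.22, SE 0.31, edgeR adjusted p = 0.603), with a sign that turned without WT_BLM replicate 2. The checkpoint kinase gene Ttk had 0.991, 1.51, 1.41 and 2.24 CPM in KO_BLM and 1.98, 4.16, 3.21 and 1.80 CPM in WT_BLM (log2 change −0.86, SE 0.34, edgeR adjusted p = 0.0681), and was called lower without KO_BLM replicate 4 or WT_BLM replicate 4 (edgeR adjusted p = 0.0382 to 0.0392). Bub3 (0.03) was not called.

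The anaphase-promoting complex marks securin and cyclin B for destruction. Of its 14 genes 2 rose and 1 fell, with a median of −0.05. Both shares, 14.3% and 7.14%, are below the 20.7% higher and 20.8% lower of all genes. Anapc13, a small scaffold subunit, had 28.4, 27.3, 28.2 and 27.9 CPM in KO_BLM replicates 1 to 4, against 17.2, 21.0, 20.7 and 15.1 CPM in WT_BLM replicates 1 to 4 (log2 change 0.60, SE 0.11, edgeR adjusted p = 0.00307). Its exons share positions with Cep63 on the other strand. Anapc11, the catalytic ring subunit, had 58.1, 65.8, 58.3 and 57.0 CPM in KO_BLM and 45.8, 47.9, 51.2 and 41.3 CPM in WT_BLM (log2 change 0.36, SE 0.088, edgeR adjusted p = 0.00964). Anapc7 had 33.4, 33.5, 39.2 and 31.0 CPM in KO_BLM and 38.3, 44.4, 40.1 and 45.3 CPM in WT_BLM (log2 change −0.30, SE 0.096, edgeR adjusted p = 0.0328), and was not called without KO_BLM replicate 1, 2 or 4 or WT_BLM replicate 2 or 4 (edgeR adjusted p = 0.0632 to 0.0860). Cdc20, the activator that the checkpoint restrains, had 11.4, 11.2, 13.3 and 12.3 CPM in KO_BLM and 16.4, 22.3, 17.3 and 10.7 CPM in WT_BLM (log2 change −0.47, SE 0.19, edgeR adjusted p = 0.0750). WT_BLM replicate 4 was the lowest of all libraries for Cdc20, which was called lower without WT_BLM replicate 4 (edgeR adjusted p = 0.00618). The other activator, Fzr1, and the remaining 9 subunit genes lay between −0.18 and 0.12 and were not called.

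Cohesin rings hold the sister chromatids together, securin keeps separase inactive, and separase cuts the ring. Of 9 tested genes 4 rose (44.4%, beside 20.7% of all genes) and 1 fell (11.1%, beside 20.8%), with a median of 0.08. Pttg1, securin, on chromosome 11 from 43420244 to 43427463, had 49.7, 48.7, 49.5 and 50.8 CPM in KO_BLM replicates 1 to 4, against 27.7, 28.2, 30.1 and 27.1 CPM in WT_BLM replicates 1 to 4. The KO_BLM libraries lay within 48.7 to 50.8 CPM and the WT_BLM libraries within 27.1 to 30.1 CPM (1.76-fold higher, log2 change 0.81, SE 0.070, edgeR adjusted p = 4.35e-05). Espl1, separase, had 6.66, 7.81, 11.8 and 9.90 CPM in KO_BLM replicates 1 to 4, against 13.9, 21.7, 21.7 and 9.58 CPM in WT_BLM replicates 1 to 4 (log2 change −0.89, SE 0.27, edgeR adjusted p = 0.0269). It lies on chromosome 15 from 102296254 to 102324357, was named after its values were seen, and was not called without KO_BLM replicate 1 or 2 or WT_BLM replicate 2 or 3 (edgeR adjusted p = 0.0638 to 0.0718) or with library totals alone (adjusted p = 0.0507). Securin was thus higher and separase lower in KO_BLM. Per length of transcript Pttg1 stood at 19.9 ± 0.810 FPKM in KO_BLM and 10.7 ± 0.763 FPKM in WT_BLM and Espl1 at 1.39 ± 0.375 FPKM in KO_BLM and 2.42 ± 0.930 FPKM in WT_BLM.

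Cdc14a, a phosphatase gene, had 22.5, 26.8, 21.9 and 29.6 CPM in KO_BLM replicates 1 to 4, against 12.8, 16.5, 17.1 and 15.8 CPM in WT_BLM replicates 1 to 4 (log2 change 0.70, SE 0.13, edgeR adjusted p = 0.00311). The cohesin genes Stag2 and Smc3 rose by less. Stag2 had 93.2, 89.8, 83.6 and 91.8 CPM in KO_BLM and 73.0, 68.5, 69.3 and 75.1 CPM in WT_BLM (log2 change 0.33, SE 0.072, edgeR adjusted p = 0.00593), and Smc3 had 41.0, 40.1, 37.4 and 45.8 CPM in KO_BLM and 32.5, 36.5, 32.0 and 30.8 CPM in WT_BLM (log2 change 0.32, SE 0.090, edgeR adjusted p = 0.0191). The groups did not overlap in any of the 3 genes. Smc3 was not called without WT_BLM replicate 1 (edgeR adjusted p = 0.0532). The other ring genes Rad21 (0.05), Smc1a (0.08) and Stag1 (−0.20) and the phosphatase gene Cdc14b (−0.08) were not called.

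Single libraries stood out in the same way in many of these genes. To set genes of different levels side by side, each library's CPM was written as a percent of the gene's own mean over the 8 libraries, and the median was taken over a group of genes. For CDK1, cyclin B and their switches this median was 62.1%, 70.7%, 78.6% and 80.6% in KO_BLM replicates 1 to 4, against 119%, 165%, 117% and 89.7% in WT_BLM replicates 1 to 4. The highest library was WT_BLM replicate 2, and WT_BLM replicate 4 stood nearest to the KO_BLM libraries. For the spindle checkpoint the medians were 79.5%, 83.2%, 87.1% and 90.4% in KO_BLM replicates 1 to 4, against 111%, 158%, 125% and 87.5% in WT_BLM replicates 1 to 4. There WT_BLM replicate 4 was inside the KO_BLM range. The whole S phase group had 80.5%, 85.4%, 97.9% and 87.8% in KO_BLM replicates 1 to 4, against 112%, 135%, 102% and 91.8% in WT_BLM replicates 1 to 4. The cohesin and mitotic exit group ran the other way, with 102%, 104%, 101% and 109.7% in KO_BLM replicates 1 to 4, against 91.4%, 98.8%, 86.4% and 83.1% in WT_BLM replicates 1 to 4.

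Among the 32 genes that fell, WT_BLM replicate 2 was the highest WT_BLM library in 17 and WT_BLM replicate 4 the lowest in 18, and WT_BLM replicate 4 was inside the KO_BLM range in 5. Of the KO_BLM libraries, replicate 1 was the lowest in 14 and replicate 4 the highest in 12. The 68 genes not called had the same outline, so it is not particular to the genes that fell. There WT_BLM replicate 2 was the highest WT_BLM library in 36 and WT_BLM replicate 4 the lowest in 40. KO_BLM replicate 1 was the lowest KO_BLM library in 25 of them and KO_BLM replicate 4 the highest in 27. The medians over all G1 genes were 93.2 to 95.6% in KO_BLM and 102 to 105% in WT_BLM. These are descriptions of the libraries, with no test over the genes. Of the libraries left out in turn, only WT_BLM replicate 4 gave a call for Cdk4, Cdc6, Mcm2, Mcm5, Cdc20 and Top2a. It was their lowest WT_BLM library, so leaving it out favours a call. Ttk and Mki67 were called without that library or without KO_BLM replicate 4, their highest KO_BLM library.

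**Figure D4:**
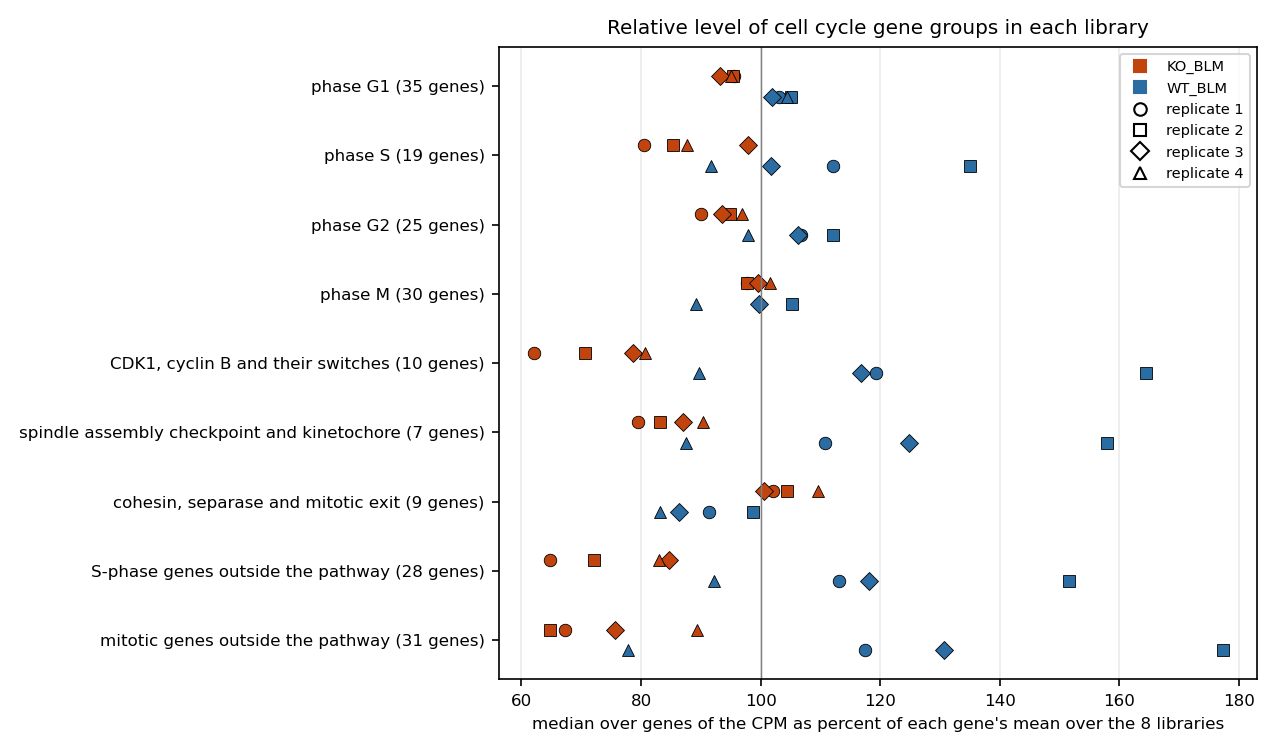
Median percent of the gene's own mean over 8 libraries (x axis, 100 is the mean) for 9 groups of genes down the page, each library a point, KO_BLM above WT_BLM, with a symbol for each replicate number. WT_BLM replicate 2 is the highest point for the CDK1 group (164.5%), the spindle checkpoint (158%) and the mitotic genes outside the pathway (177%), and WT_BLM replicate 4 is the lowest WT_BLM point in all 3.

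Genes of the same processes outside the pathway map were listed as well. These lists were chosen with earlier results of these data known, so they are a description and not an independent check. Of 28 S-phase genes that the map does not hold, 16 fell and none rose, with a median of −0.66 (0 higher at an unadjusted p under 0.05 in edgeR, and 0 by DESeq2 or voom). The share that fell was 57.1%, beside 20.8% of all genes. Chaf1a and Chaf1b, which encode subunits of the factor that loads histones on new DNA, were among those of smallest p. Chaf1a had 6.77, 7.53, 7.56 and 7.09 CPM in KO_BLM and 15.1, 15.96, 13.7 and 11.2 CPM in WT_BLM (log2 change −0.95, SE 0.14, edgeR adjusted p = 7.17e-04), and Chaf1b had 3.85, 4.07, 6.62 and 3.70 CPM in KO_BLM and 13.0, 12.7, 9.21 and 11.3 CPM in WT_BLM (log2 change −1.34, SE 0.21, edgeR adjusted p = 0.00121). Fen1, the nuclease that trims Okazaki fragments, had 11.1, 13.9, 15.1 and 12.5 CPM in KO_BLM and 23.3, 29.2, 21.7 and 23.5 CPM in WT_BLM (log2 change −0.89, SE 0.13, edgeR adjusted p = 8.40e-04), and Gins2, part of the moving helicase, had 2.53, 2.23, 3.86 and 2.40 CPM in KO_BLM and 7.92, 9.62, 7.01 and 5.77 CPM in WT_BLM (log2 change −1.46, SE 0.23, edgeR adjusted p = 0.00122). The groups overlapped in none of these 4 genes. Over the list they did not overlap in 12 of 28 genes, beside 20.7% of all genes, all 12 lower in KO_BLM. The library medians of this list were 64.8%, 72.2%, 84.7% and 83.0% in KO_BLM replicates 1 to 4, against 113%, 152%, 118% and 92.1% in WT_BLM replicates 1 to 4.

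Of 31 mitotic genes outside the map, 17 fell, none rose and all 31 were negative, with a median of −0.75 (0 higher at an unadjusted p under 0.05 in edgeR, and 0 by DESeq2 or voom). The share that fell was 54.8%, beside 20.8% of all genes. The count that fell was 27 without WT_BLM replicate 4 and 13 to 18 without any other library. Anln, which encodes the cleavage furrow protein anillin, had 9.25, 8.64, 9.22 and 11.7 CPM in KO_BLM replicates 1 to 4, against 24.2, 29.6, 23.0 and 22.1 CPM in WT_BLM replicates 1 to 4 (log2 change −1.35, SE 0.14, edgeR adjusted p = 1.09e-04). Foxm1, a transcription factor gene that drives G2 and M genes, had 10.2, 11.2, 11.4 and 11.2 CPM in KO_BLM and 21.1, 30.5, 22.0 and 16.4 CPM in WT_BLM (log2 change −1.03, SE 0.17, edgeR adjusted p = 0.00151). Cdca3, which helps to destroy WEE1, had 5.89, 6.47, 7.61 and 6.72 CPM in KO_BLM and 17.5, 23.7, 15.4 and 11.2 CPM in WT_BLM (log2 change −1.34, SE 0.21, edgeR adjusted p = 0.00120), and Tacc3, a spindle protein gene, had 11.6, 11.7, 12.9 and 11.6 CPM in KO_BLM and 26.2, 31.8, 20.8 and 17.6 CPM in WT_BLM (log2 change −1.01, SE 0.17, edgeR adjusted p = 0.00167). The groups did not overlap in any of these 4. Over the list they did not overlap in 12 of 31 genes, beside 20.7% of all genes, all 12 lower in KO_BLM. The library medians of this list were 67.2%, 64.7%, 75.6% and 89.3% in KO_BLM replicates 1 to 4. They were 117%, 177%, 131% and 77.8% in WT_BLM replicates 1 to 4. The groups overlapped there, with WT_BLM replicate 4 below KO_BLM replicate 4. The 2 genes most used to count dividing cells, named after their values were seen, did not pass the test. Mki67 had 16.7, 14.8, 17.7 and 30.5 CPM in KO_BLM and 26.5, 39.7, 33.2 and 19.4 CPM in WT_BLM (log2 change −0.58, SE 0.26, edgeR adjusted p = 0.102), and Top2a, the topoisomerase that untangles chromosomes, had 16.7, 15.8, 18.7 and 26.8 CPM in KO_BLM and 28.1, 45.2, 28.9 and 15.1 CPM in WT_BLM (log2 change −0.59, SE 0.29, edgeR adjusted p = 0.127). In both, WT_BLM replicate 4 was inside or below the KO_BLM range. Mki67 was called lower without KO_BLM replicate 4 or WT_BLM replicate 4 (edgeR adjusted p = 0.0159 to 0.0421), and Top2a without WT_BLM replicate 4 (edgeR adjusted p = 0.0201).

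Of 14 genes tied to quiescence or to braking of growth, 3 fell and none rose, with a median of −0.12 (2 higher at an unadjusted p under 0.05 in edgeR, 1 called higher by DESeq2 and 2 by voom). The share that fell, 21.4%, is near the 20.8% of all genes. The 3 that fell were Lin54, a subunit of the complex that represses cell cycle genes in resting cells, with 11.9, 12.4, 10.9 and 14.3 CPM in KO_BLM and 17.0, 15.7, 14.4 and 19.2 CPM in WT_BLM (log2 change −0.42, SE 0.13, edgeR adjusted p = 0.0261), and the antiproliferative genes Tob2, with 55.1, 62.0, 51.6 and 39.0 CPM in KO_BLM and 66.7, 60.4, 75.0 and 72.3 CPM in WT_BLM (log2 change −0.40, SE 0.14, edgeR adjusted p = 0.0371), and Btg1, with 148, 159.6, 192 and 184 CPM in KO_BLM and 204, 213, 194 and 242 CPM in WT_BLM (log2 change −0.32, SE 0.11, edgeR adjusted p = 0.0376). All 3 calls were lost with library totals alone and without KO_BLM replicate 1, WT_BLM replicate 1 or WT_BLM replicate 4.

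Of the 41 called pathway genes, 15 share exon positions with a gene on the opposite strand in the annotation, and none with one on the same strand. The library kit keeps the strand, but the strand setting of the counting is not given in the sources, and a share of reads from the partner cannot be told apart. These genes include Ccna1, Ccna2, Ccne2, Cdc14a, Cdc25c, Orc1, Plk1 and Stag2.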

How the data were processed

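Per the labels' protocols, mouse lung RNA was taken up in TRIzol, and libraries were built with the TruSeq Stranded mRNA LT kit, which keeps polyadenylated RNA and its strand. Raw whole-number counts for each gene were deposited by the authors, which are not normalized, with a KEGG pathway column. They also deposited FPKM values, and 100% of these equalled the count over the library total and 1 length per gene (relative tolerance 1e-06), so they served for levels between genes and as alternatives. Trimmomatic, HTSeq, Cufflinks, DESeq and the mm10 build are named, with no role, in the submitters' processing notes. Which aligner, gene models and strand option were used is not given in the sources used here.

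Counts of 14746 of 18824 genes (filterByExpr, minimum count 10, minimum total 15) were tested with edgeR 4.0.16 in R 4.3.3: TMM factors, robust glmQLFit, the quasi-likelihood F test on KO_BLM over WT_BLM, and Benjamini-Hochberg adjustment over all tested genes. The biological coefficient of variation was 16.6%. SE was obtained by dividing a log2 change by the root of its F statistic, and CPM uses TMM-scaled library totals. The edgeR step was tested on counts simulated with the dispersions fitted to these data, and the outcome is not given here. Libraries of a group differed from each other by more than sampling noise in every pair (chi-square of 7.24 to 55.7 per degree of freedom).

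The pathway genes, their phases and roles, and the 16 other lists were chosen with earlier results of these data known. Values in every library are given for preset genes and for up to 4 called genes of smallest p per role or list with a mean of at least 1 CPM, which named 56 pathway genes, 40 of them called. Espl1, Ttk, Cdc25b, Mki67 and Top2a were added once their values had been seen, and cell type markers are given by list rather than by gene. In 19 alternatives, scaling used library totals alone or RLE factors, the filter was dropped or set to at least 1 CPM in 4 libraries, and the test was DESeq2 1.42.0, limma 3.58.1 voom with quality weights, or limma on log2(FPKM + 1), with a 1 FPKM filter or none, or on log2(FPKM + 0.1). Others added a replicate block, dropped robust estimation or left out each library in turn. Promoters are those of RefSeq, GRCm38.p6.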

Additional observations from a re-analysis of the deposited data

Results flagged for a closer look

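Of 218 sets of 4 libraries checked for the tested cell cycle genes, 8 had 1 library whose gap to the others exceeded Dixon's 95% critical value, and chance flags about 1 in 20 sets. In KO_BLM, Ccnd2 was 151.7 CPM in replicate 4, with the others at 117 to 123 CPM. Smad2 was 46.2 CPM in KO_BLM replicate 3, with the others at 49.5 to 50.0 CPM. Rbx1, which has a pseudogene copy, was 83.7 CPM in KO_BLM replicate 2, with the others at 89.4 to 90.3 CPM. Orc4 was 36.7 CPM in KO_BLM replicate 4, with the others at 30.7 to 31.7 CPM. Mcm3 was 27.0 CPM in KO_BLM replicate 3, with the others at 23.2 to 23.8 CPM. Anapc11 was 65.8 CPM in KO_BLM replicate 2, with the others at 57.0 to 58.3 CPM. In WT_BLM, Ccnd3 was 178.7 CPM in replicate 4, with the others at 238 to 246 CPM, and Cdc14b was 28.0 CPM in replicate 4, with the others at 13.5 to 15.7 CPM. The red cell markers summed to 1466 CPM in KO_BLM replicate 4, with the other KO_BLM libraries at 2629 to 2843 CPM.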

How the results depend on the processing

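The count of pathway genes called lower was 32 in the main analysis. It was 17 with library totals alone, 13 in limma on log2(FPKM + 1) or log2(FPKM + 0.1) with a filter of 1 FPKM, 14 without that filter, 37 with DESeq2, 43 with voom and 20 to 35 with a library left out. The lower share was 29.4% beside 20.8% of all genes in the main analysis, and 15.6% beside 15.3% with library totals alone. It was 33.9% beside 23.3% with DESeq2 and 39.4% beside 26.1% with voom. In the filtered FPKM fits it was 12.5%, beside 15.8% and 15.7% of all genes. With library totals alone the lower counts were 5 in G1, 3 in S and 2 in M, and the higher counts 2 in G1, 2 in S and 3 in G2. In limma on log2(FPKM + 1) with the filter, without it, and on log2(FPKM + 0.1), the lower counts were 4, 5 and 4 in G1, 1, 2 and 1 in S, and 1 in M each time, and the higher counts 4, 2 and 3 in G1, 3, 2 and 3 in G2, and 0 in S in both filtered fits. With voom the lower count in S was 12 and the higher counts 2 in G1, 2 in S and 3 in G2. DESeq2 called 3 higher in G2, and the stricter filter left out Ccna1, so 0 in S. Leaving out a library gave lower counts of 6 to 9 in G1, 3 to 10 in S and 2 to 7 in M, and higher counts of 1 to 2 in G1, 1 to 2 in S and 0 to 2 in G2.

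Outside the pathway, the lower S-phase genes were 10 in each FPKM fit, and the lower mitotic genes 28 with voom and 13 to 27 with a library left out. Of the quiescence genes, 0 were lower with library totals alone and in the FPKM fits and 0 to 2 with a library left out. The higher ones, 0 in the main edgeR analysis and 2 at an unadjusted p under 0.05, were 2 with library totals alone, voom and the FPKM fits, 1 with DESeq2 and 0 to 2 with a library left out. The summed level of G1 genes, KO_BLM over WT_BLM, was 0.911 in CPM and 0.988 in FPKM, and that of M genes 1.02 and 1.08.

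Signs turned in 5 named genes, none of them called. The log2 fold change of Ccnd2 was −0.059 with voom and −0.085 to 0.11 with a library left out. That of Rb1 was 0.082 with library totals alone, 0.070 in both fits of log2(FPKM + 1), 0.076 on log2(FPKM + 0.1) and −0.088 to 0.11 with a library left out. That of Trp53 was 0.068 in both fits of log2(FPKM + 1), 0.073 on log2(FPKM + 0.1) and −0.28 to 0.081 with a library left out, that of Gadd45a 0.0088 with library totals alone and −0.27 to 0.045 with a library left out, and that of Bub1 −0.43 to 0.058 with a library left out. The cause was not tested. Of all settings of the named genes, 1124 kept direction and side of the threshold, 178 lost the call and 36 gained it.

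The labels number the replicates without stating a pairing, and the correlations given here cannot settle whether there was one. Deviations of same-numbered libraries correlated at 0.139, −0.024, 0.00075 and −0.065 for numbers 1 to 4, and not every library correlated best with its own number. With the number as a replicate block, 26 pathway genes were lower and 10 higher, 2 of these in G2, and 14 mitotic genes outside the pathway were lower. Counts near 1 CPM, as for Orc1, Ccna1 and Cdc25c, limit the precision of their fold changes.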
